A study of Mus musculus with 32 samples.

Results

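The members described here are 4 genes of the Zic family, Zic1, Zic2, Zic4 and Zic5. They were taken by symbol from a deposited table of 55492 rows. The rule used no measured value, but the members and the gene lists below were chosen with earlier results of these data known. Each of the 4 had 1 row, and all 4 were among the 16276 genes tested, a gene being tested where at least 2 of the 32 libraries reached 1 FPKM (fragments per kilobase of transcript, scaled by library size). Polyadenylated RNA was sequenced from mouse embryonic stem cells (day 0) and from retinal organoids grown from them (days 2, 4 and 6), with 2 libraries per group and 16 groups. WT is the Rx:GFP line, which carries a green fluorescent reporter of the eye-field gene Rax. KO is labelled as Mettl3 KO, Mettl3 encoding the methyltransferase that adds N6-methyladenosine to RNA. The remaining cultures are labelled as WT MTL3-GRBD overexpressed in the Mettl3 KO line, either untreated or with dexamethasone (Dex, a synthetic glucocorticoid, 10 µM). They are called the fusion line without Dex and with Dex, and both carry the knockout of the KO line. The design text places the fusion protein in the cytosol without Dex and in the nucleus with it. AGN was given to organoids of every line at 0.1 µM, and the day 0 labels give none. No group held WT or KO cells with Dex, so Dex itself and the moved protein cannot be told apart. The treatment protocol gives exposure times of 2, 4 and 6 days, whereas some day 0 samples are labelled Dex treated, and the labels were followed.

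Estimated depth ran from 28.8 to 53.9 M fragments per library (M, mega), with a median of 37.75 M. Whether the 2 libraries of a group came from separate cultures is not given. The p-values rest on the spread between the 2 libraries of a group, pooled over all 16 groups, and this spread may be technical. Per the labels these libraries were prepared and sequenced in separate rounds under a single batch date. Mettl3 itself ranged from 32.51 to 41.21 FPKM over the 8 WT libraries and from 34.88 to 43.83 FPKM over the 8 KO libraries, and was not lower in KO. In the fusion line it ranged from 45.16 to 71.78 FPKM without Dex and from 44.46 to 75.06 FPKM with Dex. The sources used here do not say which part of Mettl3 was altered, so its level does not check the labels, and KO stands here for what the labels call KO. The eye-field gene Rax, which marks the intended tissue, was at 118 ± 4.71 FPKM in WT at day 6, 0.3 ± 0.0283 FPKM in KO, 0.91 ± 0.170 FPKM in the fusion line without Dex and 54.7 ± 1.15 FPKM with Dex (SD, n = 2 each).

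Zic genes encode transcription factors with C2H2 zinc fingers, a domain related to that of the Gli factors of the Hedgehog pathway. They are expressed in the early neural plate, at its border and later in the dorsal neural tube, and they are known for roles in neural crest formation, midline patterning and cerebellar growth. Loss of ZIC2 function is a known cause of holoprosencephaly, a failure of forebrain division, and joint deletion of ZIC1 and ZIC4 has been linked to Dandy-Walker malformation of the cerebellum. Zic2 also acts in pluripotent cells, and in the later retina it marks ganglion cells whose axons do not cross the midline.

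The 4 genes lie as 2 divergent pairs. On chromosome 9 of GRCm38 (GENCODE M21), Zic1 (ENSMUSG00000032368) spans 91358058 to 91365810 on the minus strand, and Zic4 (ENSMUSG00000036972) spans 91362413 to 91389348 on the plus strand. Their extents share 3398 bases, but only 60 exonic bases of the 5693 of Zic1 and the 10335 of Zic4 overlap. On chromosome 14, Zic5 (ENSMUSG00000041703) spans 122456795 to 122465677 on the minus strand, and Zic2 (ENSMUSG00000061524) spans 122475435 to 122479852 on the plus strand, 9757 bases further on. The map of both loci shows the exons of each pair with the noncoding genes beside them.

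**Figure D1:**
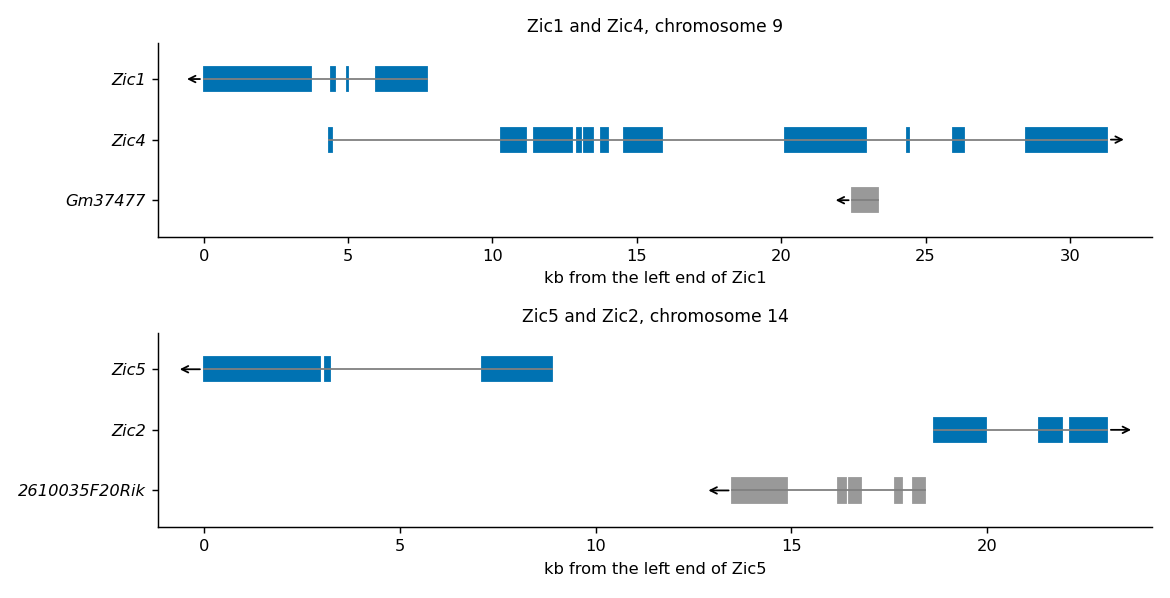
Exons (boxes) of the Zic gene pairs on chromosome 9 and chromosome 14 in GRCm38, drawn in kb from the left end of Zic1 or of Zic5, with arrows in the direction of transcription. Zic genes are blue and neighbouring noncoding genes are grey. Zic1 and Zic4 share 3398 bases of their extents, while Zic5 and Zic2 are separated by 9757 bases.

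The promoters of Zic1 and Zic4 are shown because these neighbours were switched on together, and that of Zic5 for comparison. The promoter table used here was matched for these 3 genes. Each window is the RefSeq stretch of GRCm38.p6 from 250 bases before the gene's start to 50 bases after it, by RefSeq's own start, read 5′ to 3′ on the gene's own strand, with capitals for a GC box (GGGCGG) or a CCAAT box (CCAAT) on either strand. The windows are chr9:91365719-91366018 for Zic1 (minus strand), chr9:91368722-91369021 for Zic4 (plus strand) and chr14:122465609-122465908 for Zic5 (minus strand). The Zic4 window lies inside the GENCODE extent given above, which begins further upstream, so it stands for the RefSeq start and not for the 5′ end of that extent.
Zic1: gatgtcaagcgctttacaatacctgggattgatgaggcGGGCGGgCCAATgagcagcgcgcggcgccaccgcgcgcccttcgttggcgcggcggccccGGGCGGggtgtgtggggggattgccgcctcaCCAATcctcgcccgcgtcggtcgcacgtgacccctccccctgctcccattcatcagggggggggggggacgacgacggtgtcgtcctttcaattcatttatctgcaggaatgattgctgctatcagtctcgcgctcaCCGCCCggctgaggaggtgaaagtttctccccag
Zic4: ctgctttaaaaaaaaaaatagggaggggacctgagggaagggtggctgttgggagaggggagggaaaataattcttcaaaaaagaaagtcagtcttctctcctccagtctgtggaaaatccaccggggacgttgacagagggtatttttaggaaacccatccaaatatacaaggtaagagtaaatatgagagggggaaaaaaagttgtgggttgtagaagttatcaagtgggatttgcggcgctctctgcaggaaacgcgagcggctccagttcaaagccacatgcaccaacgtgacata
Zic5: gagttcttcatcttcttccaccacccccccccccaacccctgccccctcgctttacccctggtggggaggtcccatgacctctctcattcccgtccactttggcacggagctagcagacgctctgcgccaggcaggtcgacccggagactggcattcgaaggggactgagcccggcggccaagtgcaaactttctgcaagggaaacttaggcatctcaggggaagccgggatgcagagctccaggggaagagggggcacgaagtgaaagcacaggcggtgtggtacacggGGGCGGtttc

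The Zic1 window held 65.3% G and C and 31 CpG dinucleotides, a number that 90.5% of 32851 promoter windows of the same length did not exceed. It held 3 GC boxes, 2 CCAAT boxes, none of which overlapped a GC box, and 1 E-box (CACGTG, left in lower case). The Zic4 window held 46% G and C and 8 CpG dinucleotides, which 54.2% of windows did not exceed, and none of these motifs. The Zic5 window held 62.7% G and C, 15 CpG dinucleotides, which 67.0% of windows did not exceed, and 1 GC box. Over all windows, 35.7% held a GC box, 37.4% a CCAAT box and 7.15% the E-box. A further 5 motifs were absent on both strands of the 3 windows. They were TATAAA (in 13.6% of all windows), TAATTA (5.29%), the Zic core CAGCAGG (10.5%), the Gli site GACCACCCA (0.253%) and the full glucocorticoid response palindrome (0.00913%). A match or its absence describes these letters in these windows and nothing further.

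GGACT, a form of the sequence in which N6-methyladenosine is commonly written, was counted in the longest coding transcript of each gene. Zic5 held 7 copies in 4767 bases, or 1.47 per kb, and 73.1% of 20338 genes had a density at or below it. Zic2 held 3 copies in 2440 bases (1.23 per kb, with 62.0% of genes at or below). Zic4 held 2 in 2535 bases (0.789 per kb, 36.2%) and Zic1 held 2 in 5606 bases (0.357 per kb, 15.2%). The median over all genes was 1.02 per kb. Methylation itself was not measured in these libraries.

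Zic1 and Zic4 were near 0 in every line until day 4 and were present in every line at day 6. Zic1 ranged from 0.03 to 0.6 FPKM over the 24 libraries of days 0, 2 and 4, with a median of 0.225 FPKM, and from 30.18 to 194.84 FPKM over the 8 libraries of day 6. Zic4 ranged from 0 to 0.1 FPKM in the 24 earlier libraries, 12 of which listed it at 0, and from 2.49 to 10.15 FPKM at day 6. For a transcript of 2 kb, a count of 3 fragments equals 0.0278 to 0.0521 FPKM depending on the library, so that most earlier Zic4 values stand for a few fragments at most. The libraries of day 6 did not overlap the earlier ones for either gene. Here and below, overlap or its absence only describes the values, since the share of all genes whose libraries lay apart was not counted.

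**Figure D2:**
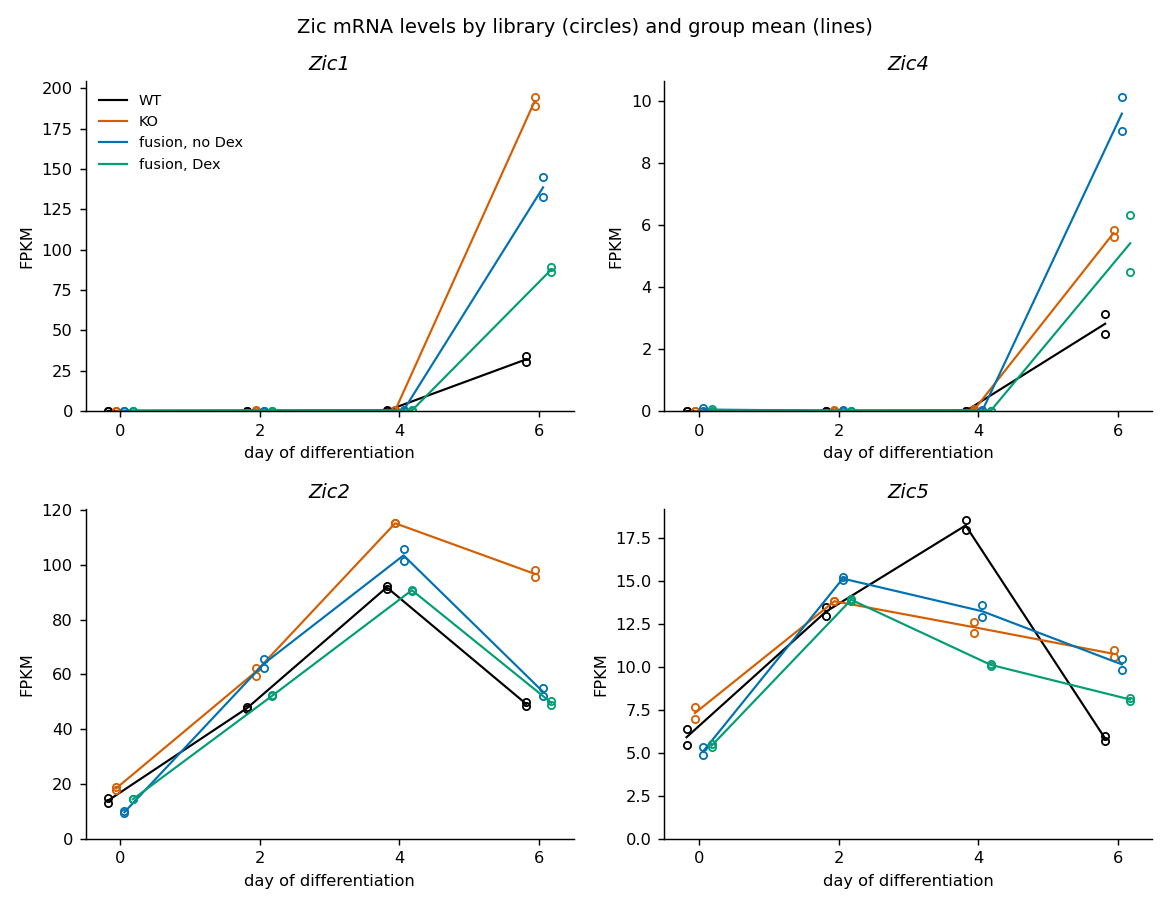
FPKM of the 4 Zic genes by day of differentiation, each library as a circle and each group mean (n = 2) joined by lines, with WT in black, KO in orange, the fusion line without Dex in blue and with Dex in green. The vertical scale differs between panels. Zic1 and Zic4 leave the axis at day 6, where Zic1 reached 194.84 FPKM in KO, while Zic2 peaked at day 4 in all 4 lines and Zic5 peaked at day 4 in WT alone among the lines.

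The size of the Zic1 rise differed between lines. At day 6 the WT libraries gave 34.02 and 30.18 FPKM of Zic1. The KO libraries gave 189.38 and 194.84 FPKM, the highest of all groups. The fusion line gave 132.5 and 144.82 FPKM without Dex, and 86.18 and 89.45 FPKM with Dex. The 4 lines did not overlap, in the order KO, fusion without Dex, fusion with Dex, WT. From day 4 to day 6 Zic1 rose on the log2(FPKM + 1) scale by 4.74 in WT, 7.10 in KO, 6.60 in the fusion line without Dex and 6.05 with Dex (SE 0.12 each, limma adjusted p from 1.01e-19 to 6e-17).

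Zic4 rose with a different order of lines. The WT libraries gave 2.49 and 3.15 FPKM of Zic4 at day 6, and the KO libraries gave 5.86 and 5.63 FPKM. The fusion line gave 9.06 and 10.15 FPKM without Dex, and 4.5 and 6.34 FPKM with Dex. The fusion line without Dex was above all other libraries and WT was below them, while KO and the fusion line with Dex overlapped. The rises from day 4 were 1.93 in WT, 2.70 in KO, 3.38 in the fusion line without Dex and 2.65 with Dex on the log2(FPKM + 1) scale (SE 0.10 each, limma adjusted p from 2e-16 to 1.49e-12). With a pseudocount of 0.1 they were 4.86, 5.46, 6.41 and 5.63 in the same order, all called, so that KO and the fusion line with Dex changed places. FPKM is scaled by length, so the genes can be set side by side: at day 6 Zic1 exceeded Zic4 by 11.6 ± 2.89 times in WT, 33.5 ± 1.62 times in KO, 14.4 ± 0.252 times in the fusion line without Dex and 16.6 ± 3.57 times with Dex (SD, n = 2).

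An antisense gene limits the reading of Zic4. Gm37477, singled out after its values were seen, lies on the opposite strand and shares 468 of its 884 exonic bases with Zic4. It was at 1.18 ± 0.0636 FPKM in WT at day 6, 5.05 ± 0.127 FPKM in KO, 12.1 ± 1.17 FPKM in the fusion line without Dex and 4.65 ± 0.290 FPKM with Dex (SD, n = 2) and was, like Zic4, highest in the fusion line without Dex and lowest in WT. Whether fragments were counted by strand is not given in the sources used here, so fragments of the 2 genes over those bases cannot be told apart.

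Zic2 was expressed in stem cells and rose to a peak at day 4 in every line. In WT the libraries gave 12.95 and 14.78 FPKM of Zic2 at day 0. They gave 47.94 and 47.51 FPKM at day 2, then 92.26 and 91.22 FPKM at day 4, and finally 48.5 and 49.83 FPKM at day 6. The KO libraries gave 18.93 and 17.83, 62.34 and 59.43, 115.13 and 115.11, and then 95.33 and 97.98 FPKM at the same days. Every KO library was above both WT libraries of its day.
The fusion line without Dex gave 9.98 and 9.41, 62.41 and 65.43, 105.56 and 101.24, and 54.95 and 52.27 FPKM of Zic2. With Dex it gave 14.48 and 14.34, 52.08 and 52.37, 90.86 and 90.54, and 50.44 and 48.74 FPKM. The libraries with Dex overlapped those of WT at days 0 and 6 and lay above them at day 2 and below them at day 4.

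Zic5 was the lower member of its pair in every library and followed a course that differed between lines. In WT the libraries gave 6.37 and 5.43 FPKM of Zic5 at day 0, 13.45 and 12.95 FPKM at day 2, 18.49 and 17.91 FPKM at day 4, and 5.68 and 5.97 FPKM at day 6. The KO libraries gave 6.96 and 7.64, 13.8 and 13.8, 11.96 and 12.62, and 10.55 and 10.94 FPKM. WT was thus above KO at day 4 and below it at day 6, with no overlap at either day.
The fusion line without Dex gave 5.33 and 4.84, 15.04 and 15.19, 12.87 and 13.56, and 10.47 and 9.79 FPKM of Zic5. With Dex it gave 5.31 and 5.51, 13.84 and 13.93, 10.05 and 10.16, and 8.02 and 8.16 FPKM. At day 4 the WT libraries were above all others and those with Dex below all others.

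Between days, changes were tested with limma on log2(FPKM + 1), and a gene was called where its p, after Benjamini-Hochberg adjustment over all tested genes, was under 0.05. Adjusted p-values below are of this kind. From day 0 to day 2, Zic2 rose by 1.72 in WT, 1.68 in KO, 2.60 in the fusion line without Dex and 1.79 with Dex (SE 0.05 each), and Zic5 rose by 1.04, 0.84, 1.41 and 1.22 (SE 0.06 each). Of all tested genes 63.4%, 65.6%, 67.9% and 60.6% were called in these lines, so that a call alone says little about a member. From day 2 to day 4, Zic2 rose again, by 0.93 in WT, 0.91 in KO, 0.69 in the fusion line without Dex and 0.78 with Dex, against 59.9%, 64.2%, 60.8% and 66.7% of genes called. Over the same step Zic5 rose by 0.44 in WT (adjusted p = 1.58e-06) and fell by 0.16 in KO (adjusted p = 0.0208), by 0.18 without Dex (adjusted p = 0.00887) and by 0.42 with Dex (adjusted p = 1.77e-06). The KO fall lost its call without any one of 3 of its 4 libraries, both of day 2 and the first of day 4, and the fall without Dex lost it without the first day 4 library.

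From day 4 to day 6 both genes of chromosome 14 fell in every line, while both genes of chromosome 9 rose. Zic2 fell by 0.89 in WT, by 0.25 in KO, by 0.94 in the fusion line without Dex and by 0.86 with Dex. Zic5 fell by 1.49 in WT, by 0.18 in KO, by 0.35 in the fusion line without Dex and by 0.29 with Dex. The share of genes called was 66.7% in WT, 65.3% in KO, 67.9% in the fusion line without Dex and 65.1% with Dex. Leaving out the second KO library of day 4 or the first of day 6 ended the call of Zic5 in KO.

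Over the whole course, from day 0 to day 6, Zic2 rose by 1.76 in WT, 2.33 in KO, 2.35 in the fusion line without Dex and 1.71 with Dex. Zic1 rose by 4.93, 7.46, 6.99 and 6.17, and Zic4 by 1.93, 2.75, 3.34 and 2.62 in the same order. Zic5 rose by 0.50 in KO, 0.87 in the fusion line without Dex and 0.50 with Dex, and differed by -0.01 ± 0.06 (SE) in WT, which was not called (adjusted p = 0.849). Of all genes 78.1% were called in WT, 80.4% in KO, 81.9% in the fusion line without Dex and 80.4% with Dex. Rescaling the libraries by median-of-ratios factors moved the WT value of Zic5 to -0.16, which was then called, and moved the median of all genes in that comparison by -0.12. It moved the Zic5 value with Dex to 0.32, and a pseudocount of 0.1 moved the Zic1 value in WT to 7.51 and the Zic4 values to 4.86, 5.87, 6.10 and 5.38, all still called.

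The ratio of Zic2 to Zic5 within a library shows that the neighbours did not keep one proportion. In WT it was 2.38 ± 0.487 at day 0 and 3.62 ± 0.0738 at day 2, and it went on to 5.04 ± 0.0732 at day 4 and 8.44 ± 0.136 at day 6 (SD, n = 2). In KO it was 2.53 ± 0.273, 4.41 ± 0.149, 9.37 ± 0.357 and 8.996 ± 0.0565 at these days. The fusion line had ratios of 7.83 ± 0.520 without Dex and 8.98 ± 0.0915 with Dex at day 4, and of 5.29 ± 0.0642 and 6.13 ± 0.224 at day 6. At day 4 the ratio was lower in WT than in each of the other lines, and at day 6 it was higher in WT and KO than in the fusion line.

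**Figure D3:**
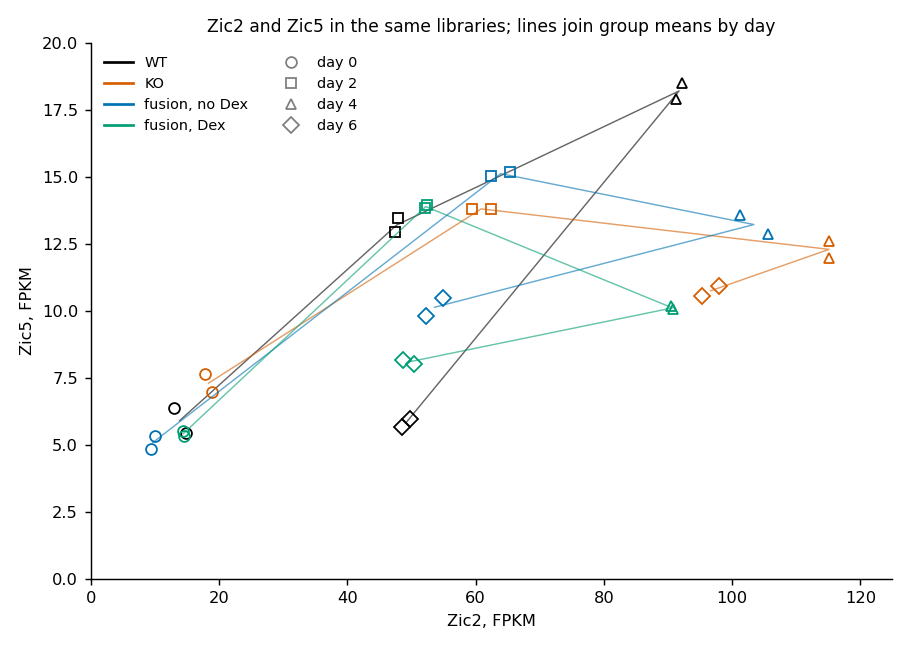
FPKM of Zic5 against FPKM of Zic2 in all 32 libraries, coloured by line with the marker shape for the day, and lines joining group means (n = 2) in order of days. The WT path turns down from 18.2 FPKM of Zic5 at day 4 to 5.83 FPKM at day 6, while in the other lines Zic5 was highest at day 2.

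KO was compared with WT first, 2 lines that differ in Mettl3 as labelled. At day 6 the 858 genes of chromosome 8 had a median difference of 0.35, beside -0.05 over other genes. On chromosomes 9 and 14, which hold the Zic members, the medians were -0.04 and -0.10. The cause of the chromosome 8 shift was not tested. In this comparison loss of Mettl3 cannot be told apart from other differences between the lines. Zic2 was higher in KO at all 4 days, by 0.38, 0.34, 0.32 and 0.96 on the log2(FPKM + 1) scale at days 0, 2, 4 and 6 (SE 0.05 each, adjusted p from 4.67e-13 to 4.07e-06). Zic5 was higher by 0.27 ± 0.06 at day 0 (SE, adjusted p = 0.000551), differed by 0.06 ± 0.06 at day 2 without a call (adjusted p = 0.382), was lower by 0.53 at day 4 and higher by 0.78 at day 6. Members called were thus 2 of 4 at day 0, where 48.2% of all genes were called. At day 2 they were 2 of 4, against 58.9% of genes. At day 4 they were 2 of 4, against 60.5%. All 4 were higher in KO at day 6, against 65.1% of genes called in either direction. The day 0 calls of Zic2 and Zic5 were lost when only WT and KO libraries of that day were fitted (adjusted p = 0.0618 and 0.160), and the uncalled day 2 value of Zic5 turned to -0.05 after rescaling. Rescaling also moved the Zic2 differences at days 2 and 4 to 0.23 and 0.22, both still called.

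At day 6 Zic1 was 5.98 times as high in KO as in WT by group means, 192 ± 3.86 against 32.1 ± 2.72 FPKM (SD, n = 2), a log2(FPKM + 1) difference of 2.55 ± 0.12 (SE, adjusted p = 6.9e-13). Zic4 was 2.04 times as high (0.83 ± 0.10, adjusted p = 3.85e-07), Zic2 1.97 times (0.96 ± 0.05, adjusted p = 4.67e-13) and Zic5 1.84 times (0.78 ± 0.06, adjusted p = 2.67e-10). The calls of all 4 genes at day 6 held under each alternative that could be fitted to them. In bulk RNA, fewer cells of a type and less RNA per cell cannot be told apart.

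Whether the KO against WT difference changed with the day was tested as an interaction. From day 0 to day 6 it grew by 2.53 ± 0.17 for Zic1, 0.83 ± 0.14 for Zic4, 0.58 ± 0.06 for Zic2 and 0.51 ± 0.08 for Zic5 (log2 scale, SE), and 56.9% of genes were called. From day 4 to day 6, a step chosen after seeing the data, it grew by 1.31 ± 0.08 for Zic5 (adjusted p = 9.74e-11), 2.35 ± 0.17 for Zic1, 0.78 ± 0.14 for Zic4 and 0.64 ± 0.06 for Zic2, against 48.0% of genes called. With a pseudocount of 0.1 in place of 1, the Zic4 interactions were no longer called (adjusted p = 0.0505 and 0.269). Zic1 and Zic4 were under 1 FPKM in every library before day 6. Their interactions therefore largely repeat the day 6 difference and cannot show whether an effect of the line changed with the day.

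The fusion line without Dex was next set against KO, the line it was made from. At day 0 Zic2 was lower by 0.86 ± 0.05 (SE, adjusted p = 1.72e-11) and Zic5 by 0.45 ± 0.06 (adjusted p = 1.74e-06), 2 of 4 members, where 49.1% of genes were called. At day 2 none of the 4 was called, against 37.0% of genes (6027 of 16276). None of the 4 but Zic5 had an unadjusted p under 0.05 there, and Zic5 was called after rescaling (0.16, adjusted p = 0.0402). At day 4 Zic2 alone was called, lower by 0.15 ± 0.05 (adjusted p = 0.0163), against 26.7% of genes. That call was lost after rescaling, with the compared groups alone, and without any one of 3 of its 4 libraries, both of KO and the second without Dex.

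At day 6 the genes went different ways in that comparison, with 3 of 4 called against 49.0% of genes. Zic2 was lower by 0.84 ± 0.05 than in KO (adjusted p = 1.51e-11), at 53.6 ± 1.90 against 96.7 ± 1.87 FPKM (SD, n = 2). Zic1 was lower by 0.47 ± 0.12 (adjusted p = 0.00365), 0.722 times its KO level. Zic4 was higher by 0.65 ± 0.10 (adjusted p = 1.53e-05), 1.67 times its KO level. Zic5 differed by -0.08 ± 0.06 and was not called (adjusted p = 0.274). With a pseudocount of 0.1 the Zic1 and Zic4 differences were no longer called (adjusted p = 0.394 and 0.0521).

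Dex was tested within the fusion line. At day 6 Zic1 was lower with Dex by 0.65 ± 0.12 (SE, adjusted p = 0.00026), 0.633 times its level without Dex. Zic4 was lower by 0.74 ± 0.10 (adjusted p = 5.16e-06), 0.564 times its level without Dex, and Zic5 was lower by 0.29 ± 0.06 (adjusted p = 0.000308). Zic2 differed by -0.11 ± 0.05 and was not called (adjusted p = 0.0583), although its libraries did not overlap. It passed the threshold after rescaling (adjusted p = 0.0382) and with genes of a mean FPKM of at least 5 (adjusted p = 0.0472). Members called were 3 of 4, against 42.7% of genes. The Zic1 call was lost with a pseudocount of 0.1 (adjusted p = 0.239) and the Zic4 call with the compared groups alone (adjusted p = 0.061).

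At the earlier days Dex went with changes of Zic2 and Zic5. Zic2 was higher with Dex at day 0 by 0.53 ± 0.05 (adjusted p = 2.32e-08), 1 of 4 members, against 43.4% of genes. It was lower with Dex at day 2 by 0.29 ± 0.05 (adjusted p = 4.22e-05), again 1 of 4, against 44.3% of genes, and by 0.17 after rescaling (adjusted p = 0.00485). At day 4 Zic2 was lower by 0.19 ± 0.05 (adjusted p = 0.00264) and Zic5 by 0.36 ± 0.06 (adjusted p = 4.45e-05), against 40.2% of genes. As an interaction, the Dex against no Dex difference moved down from day 0 to day 6 for all 4 genes, by -0.82 ± 0.17 for Zic1, -0.72 ± 0.14 for Zic4, -0.64 ± 0.06 for Zic2 and -0.37 ± 0.08 for Zic5, where 48.7% of genes were called. With a pseudocount of 0.1 the interactions of Zic1 and Zic4 were not called (adjusted p = 0.0621 and 0.181). Both genes were under 1 FPKM at day 0, so their interactions largely repeat the day 6 difference.

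**Figure D4:**
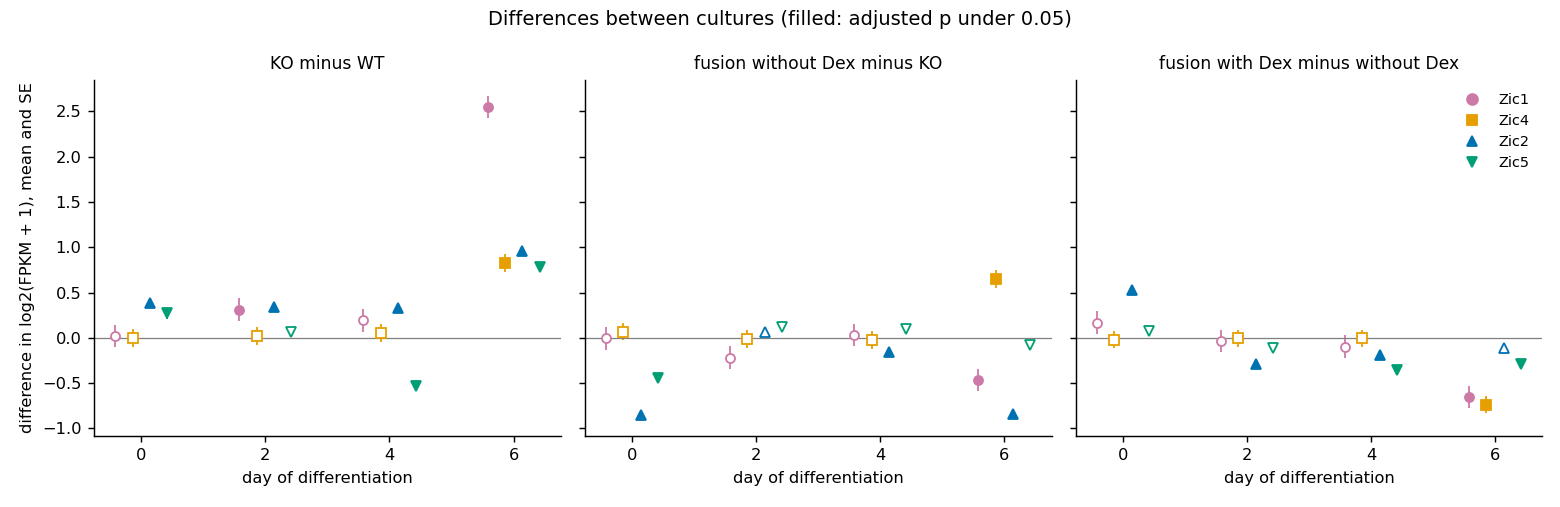
Differences of the 4 Zic genes on the log2(FPKM + 1) scale by day (mean and SE from limma) for KO minus WT, the fusion line without Dex minus KO, and the fusion line with Dex minus without; filled symbols passed an adjusted p of 0.05. In the first panel all 4 genes are above 0 at day 6 and Zic5 is below 0 at day 4, and in the third panel all 4 values are below 0 at day 6, with Zic2 not called.

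Against WT, the fusion line with Dex had a Zic2 level without a call at day 6, a difference of 0.01 ± 0.05 (SE, adjusted p = 0.845), and the other 3 genes were higher, against 61.4% of genes called. Zic1 was at 87.8 ± 2.31 FPKM (SD, n = 2), 2.74 times WT (1.43 ± 0.12, adjusted p = 6.29e-09). Zic4 was higher by 0.74 ± 0.10 (adjusted p = 2.04e-06) and Zic5 by 0.41 ± 0.06 (adjusted p = 2.81e-06). At day 4 Zic5 was lower than in WT by 0.79 ± 0.06 (adjusted p = 1.23e-09), the only member called, against 44.7% of genes. At day 2 Zic2 alone was called, higher by 0.13 ± 0.05 (adjusted p = 0.041), against 29.4% of genes, and leaving out any 1 of its 4 libraries ended that call. No member was called at day 0 by limma, against 49.8% of genes, none had an unadjusted p under 0.05, and after rescaling Zic2 was called (0.13, adjusted p = 0.0266). These comparisons share the WT libraries with KO against WT, and the values are given side by side only.

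The fusion line without Dex stood between KO and WT for Zic1 at day 6, above WT by 2.08 ± 0.12 (SE, adjusted p = 2.23e-11). Zic4 was above WT by 1.48 ± 0.10, Zic5 by 0.71 ± 0.06 and Zic2 by 0.12 ± 0.05 (adjusted p = 0.0249), so that all 4 were called, against 62.8% of genes. The Zic2 call was lost with the compared groups alone (adjusted p = 0.0567), and without the first library of either group. At day 0 Zic2 was lower than in WT by 0.47 and Zic5 by 0.18, against 62.4% of genes. At day 2 Zic2 was higher by 0.41 and Zic5 by 0.18, against 46.0% of genes. At day 4 Zic2 was higher by 0.17 and Zic5 lower by 0.43, against 51.9% of genes. After rescaling the Zic5 differences at days 0 and 2 (-0.04 and 0.10) and the Zic2 difference at day 4 (0.11) were not called. The Zic5 call at day 0 was also lost without replicate 1 of WT or replicate 2 of the fusion line, and that at day 2 without replicate 2 of either, with the values ranging from -0.28 to -0.08 and from 0.16 to 0.21 over the libraries left out.

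At days 0, 2 and 4, where Zic1 and Zic4 were under 1 FPKM, 1 of 30 tests between lines was called, where 26.7% to 62.4% of all genes were called in these comparisons. It was Zic1 in KO against WT at day 2 (0.31 ± 0.12, adjusted p = 0.0372). Of 16 tests between days up to day 4, 1 was called, where 59.9% to 67.9% of all genes were. It was Zic1 in KO at day 2 against day 0 (0.37 ± 0.12, adjusted p = 0.0121). The 2 KO libraries gave 0.6 and 0.27 FPKM at day 2 and the WT libraries 0.04 and 0.27 FPKM, so that the groups touched. KO replicate 1 of day 2 was the deepest library (53.9 M fragments) and had the lowest share of values near a whole fragment, 85.1%, against 90.3% to 93.3% in the others. Without KO replicate 1 of day 2 neither call held (0 calls each), and without WT replicate 1 of day 2 no test between lines was called. Without replicate 1 of WT at day 4, replicate 2 of KO at day 2 or replicate 1 without Dex at day 4 the calls between lines were 3, 2 and 2, and without the last of these the calls between days were 2.

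Over the 16 group means of log2(FPKM + 1), Zic1 and Zic4 had a Pearson r of 0.99 and Zic2 and Zic5 one of 0.79. Across the pairs r was 0.24 for Zic1 and Zic2 and -0.14 for Zic1 and Zic5. The points share libraries and a common course of days, and r is given as a description. Among 3395 genes that spanned at least 2 log2 units, 229 had r above 0.9 with Zic1, 181 with Zic4 and 106 with Zic2, but only 4 of 3396 did with Zic5. The genes nearest to Zic1 were Vit (0.999), Lix1 (0.994), Mir99ahg (0.993), Zic4 and Slit2, a secreted axon guidance factor (0.989). Those nearest to Zic4 were Vit, Zic1, the neuropeptide gene Sst (0.987), Khdrbs2 (0.985) and Fam181a (0.985). Nearest to Zic2 were Fam131b (0.975), Magel2 (0.972), Slain1 (0.97), St8sia3 (0.969) and Otx2, a homeobox factor of the anterior brain (0.967). Nearest to Zic5 were Stx3 (0.91), Trim46 (0.907), Cend1 (0.902), Rgs11 (0.902) and Syt5 (0.893).

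Genes beside the pairs did not all share their course. Clybl, which ends 54.6 kb from Zic5 and was chosen after seeing its values, was at 32.8 ± 0.693 FPKM in WT at day 4 and 15.99 ± 1.00 FPKM in KO. It was also lower in KO at the other days, with group means of 6.79 against 10.8 FPKM at day 0, 20.2 against 24.7 FPKM at day 2 and 13.7 against 19.3 FPKM at day 6. With Dex it was at 30.7 FPKM at day 4, above the 21.3 FPKM without Dex, where Zic5 was lower with Dex. For Pcca, 54.5 kb beyond Zic2, the day 4 group means were 10.7 (WT) and 11.0 FPKM (KO). In the fusion line the Pcca means of that day were 11.7 FPKM with Dex and 9.67 FPKM without Dex. The noncoding gene 2610035F20Rik, also singled out, ends 235 bases before Zic2 on the opposite strand with no exonic base in common, and its group means lay between 0.175 and 1.14 FPKM. The genes listed on either side of the chromosome 9 pair lie further off. Tbc1d2b, at 1087 kb, rose to at most 7.79 FPKM, in KO at day 6. It was then at 6.385 FPKM without Dex, 4.97 FPKM with Dex and 4.8 FPKM in WT, the order of lines of Zic1. Plscr5, at 804 kb, was listed at 0 in every group.

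Other genes of the dorsal neural tube and neural plate border, where Zic genes act, were counted from a list of 14. For this list and those that follow, the share of all genes called at day 6 was 65.1% in KO against WT, 49.0% without Dex against KO, 42.7% with Dex against without, 61.4% with Dex against WT and 62.8% without Dex against WT. In KO against WT at day 6, 12 were higher and 1 was lower, with a median of 2.32 beside -0.03 over all genes. Wnt1, a dorsal midline signal, was at 58.7 ± 1.03 against 1.48 ± 0.170 FPKM, and Pax3, a dorsal and border factor, at 32.9 ± 0.0919 against 0.555 ± 0.0778 FPKM (SD, n = 2). Gbx2, a hindbrain factor, was the lower one, at 0.3 against 0.655 FPKM, under 1 FPKM in both groups. With Dex against without, 2 were higher and 11 lower (median -0.74 beside 0.01), Pax3 being at 3.81 ± 0.0212 against 19.5 ± 0.170 FPKM and Msx2, a border factor, at 14.4 ± 0.389 against 6.38 ± 0.332 FPKM. Without Dex against KO, 3 were higher and 8 lower (median -0.31). Against WT, 13 were higher and 1 lower with Dex (median 1.27), and 12 were higher and none lower without (median 1.90).

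The eye-field list of 9 went the other way in its median. In KO against WT, 2 were higher and 6 lower (median -3.14), and with Dex against without 7 were higher and 1 lower (median 1.45). Mab21l2 and Otx2 were the 2 higher in KO, Otx2 being at 203 ± 0.629 against 105 ± 0.700 FPKM. Otx2 was lower with Dex than without, at 137 ± 0.693 against 168 ± 3.26 FPKM, while Lhx2 was higher, at 155 ± 0.933 against 17.3 ± 0.976 FPKM. The medians were 0.46 without Dex against KO (5 higher, 2 lower), -0.38 with Dex against WT (3 and 5) and -1.14 without Dex against WT (3 and 6).

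The 6 Gli and Glis genes, the nearest relatives of the family in the zinc finger domain, moved both ways in most comparisons. In KO against WT, 3 were higher and 2 lower (median 0.11). Gli3, a repressor-forming Hedgehog factor, was at 34.9 ± 0.233 against 17.1 ± 0.0778 FPKM, and Gli1, itself a target of the pathway, at 1.36 ± 0.00707 against 3.69 ± 0.0566 FPKM. With Dex against without, 2 were higher and 2 lower, and without Dex against KO none was higher and 3 were lower (Gli1, Gli2 and Glis2, median -0.32). Against WT, the counts were 3 and 3 with Dex, and 2 and 3 without.

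Of 12 forebrain midline genes linked to holoprosencephaly, as Zic2 is, 11 were tested. In KO against WT, 5 were higher and 6 lower (median -0.38), with Six3, which is also in the eye-field list, at 0.635 ± 0.0778 against 132 ± 8.96 FPKM and Cdon, a Hedgehog co-receptor, at 34.5 ± 0.290 against 8.24 ± 0.467 FPKM. With Dex against without, 5 were higher and 4 lower, and without Dex against KO, 3 and 7. Of 9 formative pluripotency genes, 3 were higher and 5 lower in KO than in WT. The counts were 1 and 6 with Dex against without, and 1 and 5 without Dex against KO. Against WT the midline counts were 4 and 5 with Dex and 5 and 5 without, and the formative counts 4 and 5, and 4 and 4. The medians of both lists without Dex against WT (-0.03 and -0.02) turned to 0.01 and 0.03 after rescaling.

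**Figure D5:**
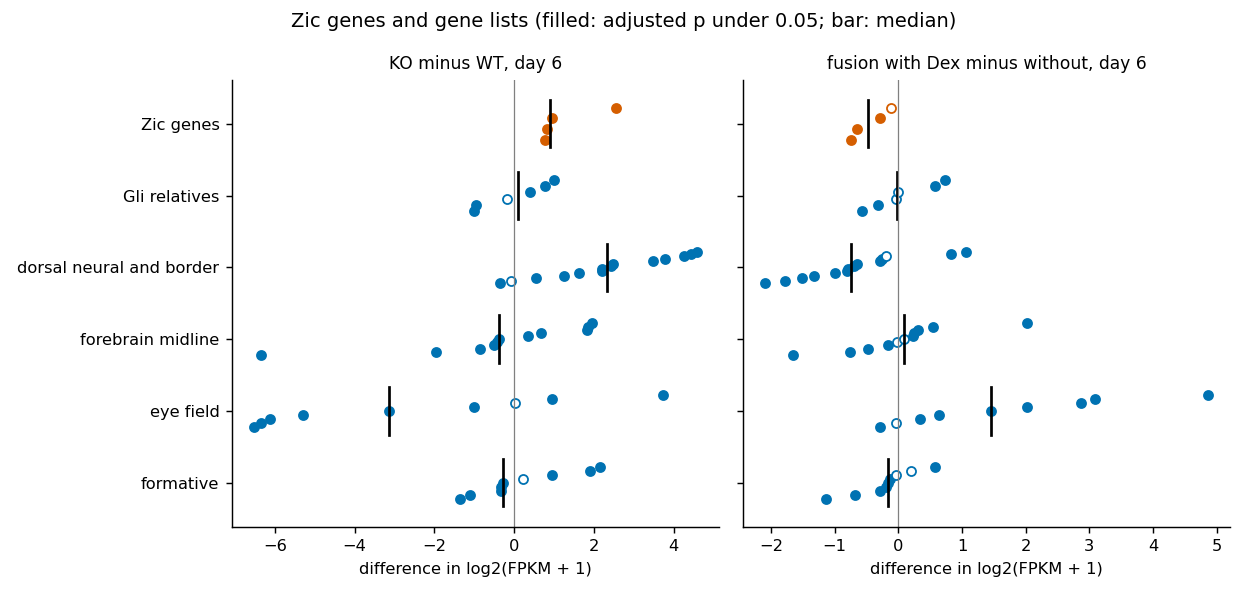
Day 6 differences on the log2(FPKM + 1) scale of the 4 Zic genes (orange) and of 5 gene lists (blue), each gene as a circle that is filled where the adjusted p was under 0.05, with the median as a black bar, for KO minus WT and for the fusion line with Dex minus without. The Zic genes and the dorsal neural and border list have medians above 0 in the first panel and below 0 in the second, and the eye-field median is -3.14 and 1.45.

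Markers of other cell types also differed between lines at day 6. The summed level of 6 neural crest markers was 3.89 to 4.04 FPKM in WT, where all 6 were under 1 FPKM and none at 0. It was 50.6 to 51.4 FPKM in KO, 54.02 to 54.65 FPKM in the fusion line without Dex and 22.05 to 23.54 FPKM with Dex, and all 6 were higher in KO than in WT. This set is not separate from the lists above, since Tfap2a and Tfap2b are also in the dorsal neural and border list and Foxd3 in the formative list. A set of 5 markers of early neurons summed to 41.09 to 43.21 FPKM in WT, 299.59 to 303.13 FPKM in KO, 238.54 to 241.4 FPKM in the fusion line without Dex and 146.33 to 147.6 FPKM with Dex, and 5 of 5 were higher in KO than in WT. In stem cells at day 0 this sum was 335.33 to 339.15 FPKM in WT and 296.12 to 310.15 FPKM in KO, so it is not particular to neurons. Neurog2 and Dcx were under 1 FPKM in both lines at day 0 and in WT at day 6. A set of 6 markers of mesenchyme and meninges, tissues that also express Zic genes, summed to 7.14 to 7.38 FPKM in WT, 31.46 to 32.64 FPKM in KO, 26.92 to 27.7 FPKM in the fusion line without Dex and 22.79 to 24.88 FPKM with Dex, with 5 of 6 higher and 1 lower in KO than in WT. The sums for early neurons and for mesenchyme and meninges had the order of the lines of Zic1, as did the neural progenitor sums given below. The members did not all move with their sum. Without Dex against KO, 0 early neuron markers were called higher and 4 lower, against 49.0% of genes called. For mesenchyme and meninges the counts were 1 and 2, and for neural progenitors 1 and 2. With Dex against without, they were 1 and 4, 2 and 3, and 0 and 1 in the same order, against 42.7% of genes. The part of these cell types in the Zic differences was not tested.

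Other marker sets changed too. A set of 5 extraembryonic endoderm markers summed to 40.77 to 41.64 FPKM in WT, and to 0.59 to 0.8, 0.56 to 0.76 and 4.57 to 5.09 FPKM in KO and in the fusion line without and with Dex, 5 of 5 being lower in KO than in WT. A set of 5 neural progenitor markers summed to 406.48 to 410.72 FPKM in WT, 615.71 to 619.96 FPKM in KO, 590.32 to 592.23 FPKM in the fusion line without Dex and 489.97 to 504.74 FPKM with Dex. A set of 5 pluripotency markers summed to 75.15 to 75.83 FPKM in WT and to between 25.77 and 31.21 FPKM in the other lines, and 5 of 5 were lower in KO than in WT. A set of 5 surface ectoderm markers summed to 21.05 to 22.58 FPKM in WT and to 9.57 to 9.95, 11.08 to 11.18 and 15.84 to 17.68 FPKM in KO and in the fusion line without and with Dex. Of these, Trp63, Krt14 and Krt5 were under 1 FPKM in every line, and Grhl3 was too in each line but WT. The sums outside WT thus stood mostly for Krt8. A set of 6 paraxial mesoderm markers summed to at most 3.05 FPKM in any line, with 5 of 6 under 1 FPKM. A set of 6 cerebellar and hindbrain markers, a region in which Zic1 and Zic4 are active later, summed to at most 3.82 FPKM, with at least 4 of 6 under 1 FPKM. The part of these sets in the Zic differences was not tested.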

How the data were processed

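Expression was deposited by the authors as FPKM with 2 decimals, which corrects fragments for the length of the transcript and the size of the library. STAR, Cuffdiff and the mm10 build are named, per the submitters' processing notes, with no version. All 32 sample columns of the table were used (0 other columns), and 21161 rows were at 0 throughout. Each group holds 2 libraries, per the labels. Positions come from GENCODE M21, which matched 99.4% of rows.

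Tests used R 4.3.3 and limma 3.58.1 on log2(FPKM + 1), which understates the change of low genes. lmFit over 16 group means of all 32 libraries left 16 residual degrees of freedom, followed by contrasts.fit and eBayes with a trend. Genes were tested where at least 2 libraries reached 1 FPKM (16276 genes). P-values were two-sided and adjusted by Benjamini-Hochberg over all tested genes, with calls under 0.05.

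Depth was estimated from steps of low FPKM values in genes with 1 transcript. The share of these values no more than 0.2 from a whole number of fragments was 85.1% to 93.3%. The limits given by fragments cover counting error only.

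The members and gene lists were chosen with earlier results of these data known. Named genes were the members, the 5 genes closest in pattern to each by Pearson r over 16 group means (span of at least 2 log2 units, no predicted genes), called members of the lists with the largest changes at day 6, Mettl3, Rax and the neighbours of the loci. A further gene within that rule is not reported here. Alternatives were a pseudocount of 0.1, no filter, a mean FPKM of at least 5, median-of-ratios rescaling, a replicate block, fits of the compared groups alone, and each library left out. The interaction from day 4 to day 6 was added after seeing the data.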

Additional observations from a re-analysis of the deposited data

Results flagged for a closer look

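Interaction contrasts of KO against WT with the day were called for all 4 Zic genes in the limma fit of all 32 libraries. Zic1 and Zic4 were under 1 FPKM in every library before day 6. Their contrasts therefore largely repeat the day 6 difference and cannot show whether an effect of the line changed with the day. From day 0 to day 6 it grew by 2.53 for Zic1, 0.83 for Zic4, 0.58 for Zic2 and 0.51 for Zic5 on the log2(FPKM + 1) scale, higher in KO than in WT in both libraries at day 6, where 56.9% of all genes were called. From day 4 to day 6, a pair of days chosen after seeing the data, it grew by 2.35 for Zic1, 0.78 for Zic4, 0.64 for Zic2 and 1.31 for Zic5, whose difference changed sign, where 48.0% of genes were called. With a pseudocount of 0.1 the Zic4 values were not called (adjusted p = 0.0505 and 0.269). Within the fusion line, the gap between treated and untreated cultures was compared between day 0 and day 6 in the same fit. This gap moved by -0.64 for Zic2 and -0.37 for Zic5, which were expressed at both days. The values were -0.82 for Zic1 and -0.72 for Zic4. All 4 were called, as were 48.7% of genes. The Zic1 and Zic4 values were not called with a pseudocount of 0.1 (adjusted p = 0.0621 and 0.181). Both genes were under 1 FPKM at day 0, so their values largely repeat the day 6 difference. They cannot show whether an effect of Dex changed with the day. Outlying samples within a group were not tested for, since each group holds 2 libraries.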

How the results depend on the processing

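Of 112 results for the Zic genes, 84 stayed on their side of the threshold with the same direction under every alternative run on them. The replicate number as a block changed none of the 112, KO against WT for Zic1 at day 6 being 2.55 with it. Over 120 pairs of groups the correlation of the duplicate differences lay between -0.09 and 0.13, so no pairing by number was assumed. Zic4 was not tested with a mean FPKM of at least 5. For the changes below, the cause was not tested.

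With a pseudocount of 0.1, calls were lost for Zic1 without Dex against KO (-0.47) and with Dex against without (-0.66) at day 6 and in the Dex interaction (-1.41), and for Zic4 without Dex against KO at day 6 (0.73), in both KO against WT interactions (1.01 from day 0, 0.60 from day 4) and in the Dex interaction (-0.71). With the compared groups alone, calls were lost for Zic4 with Dex against without at day 6 (-0.74), for Zic2 in KO against WT at day 0 (0.38), without Dex against KO at day 4 (-0.15) and without Dex against WT at day 6 (0.12), and for Zic5 at day 0 in KO against WT (0.27) and without Dex against WT (-0.18). Rescaling ended calls of Zic2 without Dex at day 4 against KO (-0.11) and WT (0.11), and of Zic5 without Dex against WT at days 0 and 2 (-0.045 and 0.10). It added calls of Zic2 with Dex against without at day 6 (-0.12) and against WT at day 0 (0.13), and of Zic5 without Dex against KO at day 2 (0.16) and in WT from day 0 to day 6 (-0.16), and it reversed Zic5 in KO against WT at day 2 (-0.052, not called). A mean FPKM of at least 5 added Zic2 with Dex against without at day 6 (-0.11), and no filter ended Zic2 with Dex against WT at day 2 (0.13). The count of calls of Zic1 and Zic4 between lines up to day 4 was 0 with no filter, after rescaling and with the compared groups alone.

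With each library left out, 502 of 536 values kept their direction and call. The lone library of a group was then assumed to vary like the other groups. The ranges of results that changed were, for Zic2, -0.18 to -0.12 without Dex against KO at day 4, -0.15 to -0.075 with Dex against without at day 6 (called without replicate 2 of the no Dex group), -0.034 to 0.14, 0.12 to 0.13 and -0.012 to 0.036 with Dex against WT at days 0, 2 and 6, and 0.087 to 0.16 without Dex against WT at day 6. For Zic5 they were -0.20 to -0.0047 with Dex against WT at day 0, -0.28 to -0.081 and 0.16 to 0.21 without Dex against WT at days 0 and 2, -0.11 to 0.086 in WT from day 0 to day 6, -0.19 to -0.12 and -0.21 to -0.14 in KO from day 2 to 4 and from day 4 to 6, and -0.22 to -0.15 without Dex from day 2 to 4. The low-level calls of Zic1 and Zic4 ranged from 0 to 3 between lines and from 0 to 2 between days.

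Counts over all genes moved by more than 1.5 times with the compared groups alone in KO against WT at day 0 (7849 to 3357), without Dex against KO at days 2 and 4 (6027 to 3941 and 4339 to 2284), and with Dex against WT at days 0 and 2 (8106 to 4342 and 4782 to 2603). A mean FPKM of at least 5, which tests fewer genes, did so between days. From day 2 to 4 the counts were 9750 and 6469 in WT, 10455 and 6957 in KO, 9899 and 6514 without Dex, and 10860 and 7125 with Dex. From day 4 to 6 they were 10862 and 7127, 10633 and 7016, 11048 and 7229, and 10598 and 7030 in that order, and from day 0 to 6 they were 12712 and 7880, 13086 and 8148, 13324 and 8222, and 13091 and 8049. From day 0 to 2 they were 10684 and 7007 in KO and 11055 and 7339 without Dex. Rescaling moved the median of all genes by over 0.1 in 7 comparisons, most in the fusion line without Dex from day 0 to day 6 (-0.20).

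Depth limits Zic4 before day 6, and 2 libraries per group limit every spread.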
